A study of Mus musculus with 17 samples.

Results

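The 10 genes described here mark and maintain spermatogonial stem cells, or mark the step that follows self-renewal: Gfra1, Ret, Zbtb16, Id4, Etv5, Sall4, Lin28a, Kit, Dmrt1 and Sohlh1. They were chosen by symbol, and all 10 of 10 were found among the 23980 genes of both deposited expression tables. Poly(A)-selected RNA had been sequenced from 17 libraries of C57BL6/J mice. Leptotene/zygotene (L/Z) spermatocytes gave 6 libraries. These are cells at the start of meiotic prophase, which were sorted by DNA dye fluorescence from animals 3 to 4 weeks old and read as single reads of 50 bp. Each genotype, namely wild type (WT), the Pld6 KO and the Dnmt3l KO, had 2 such libraries (the last is spelled Dnmt3L KO in the labels). The other 11 libraries came from whole testes at postnatal day 0 (P0), read as paired 100-bp reads: 2 WT, 4 Pld6 KO, 2 Dnmt3l KO and 3 Pld6 and Dnmt3l double KO (DKO). Both mutations are carried in every cell of the animal, and both lines had been backcrossed to the C57BL/6J strain. Pld6 encodes a mitochondrial enzyme of PIWI-interacting RNA production, and Dnmt3l a cofactor of de novo DNA methylation. Mutant germ cells of both lines die late in zygotene, so spermatogonia and early spermatocytes are the germ cells that a mutant testis still has at 3 to 4 weeks. P0 libraries hold all cells of the organ, so that fewer germ cells and less RNA per germ cell cannot be told apart in them.

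In the testis, Sertoli cells secrete GDNF, which binds the co-receptor GFRA1 and signals through the receptor tyrosine kinase RET. ETV5 is a transcription factor induced by that signal, ID4 an inhibitor of basic helix-loop-helix factors, and ZBTB16 (also called PLZF) and SALL4 are zinc finger factors of undifferentiated spermatogonia. LIN28A is an RNA-binding protein that blocks maturation of let-7. DMRT1 restrains entry into meiosis, SOHLH1 is a basic helix-loop-helix factor that drives differentiation, and KIT is the receptor for stem cell factor on differentiating spermatogonia. At birth the germ cells are prospermatogonia, the precursors of the stem cells, and some of the genes are also used outside the germ line, for example Dmrt1 and Etv5 in Sertoli cells and Kit in Leydig and mast cells.

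Sohlh1 was the member with a called change. DNMT3L is a cofactor of de novo DNA methylation, which falls on cytosines of CG dinucleotides. For this reason, sequence upstream of the Sohlh1 start is shown with that of Gfra1, a GDNF receptor gene, and Kit. The reference table held such stretches for 6 of the 10 genes (RefSeq, GRCm38.p6), Ret, Zbtb16, Sall4 and Dmrt1 not being among them. The 250 bases before the start are printed 5′ to 3′ on the gene's strand, with every CG in capitals: chr2:25847249-25847498, minus strand, for Sohlh1, chr19:58455399-58455648, minus strand, for Gfra1, and chr5:75574737-75574986, plus strand, for the more upstream of the Kit starts.
Sohlh1: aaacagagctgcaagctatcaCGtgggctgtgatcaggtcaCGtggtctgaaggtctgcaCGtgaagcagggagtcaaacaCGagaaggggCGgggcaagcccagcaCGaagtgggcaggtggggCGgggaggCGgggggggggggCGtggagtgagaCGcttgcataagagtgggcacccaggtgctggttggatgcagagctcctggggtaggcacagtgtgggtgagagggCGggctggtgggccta
Gfra1: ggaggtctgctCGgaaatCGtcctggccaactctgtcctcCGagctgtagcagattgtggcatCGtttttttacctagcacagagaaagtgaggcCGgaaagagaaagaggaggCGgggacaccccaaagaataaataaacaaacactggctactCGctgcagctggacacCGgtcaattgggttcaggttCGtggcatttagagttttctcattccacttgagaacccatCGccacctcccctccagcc
Kit: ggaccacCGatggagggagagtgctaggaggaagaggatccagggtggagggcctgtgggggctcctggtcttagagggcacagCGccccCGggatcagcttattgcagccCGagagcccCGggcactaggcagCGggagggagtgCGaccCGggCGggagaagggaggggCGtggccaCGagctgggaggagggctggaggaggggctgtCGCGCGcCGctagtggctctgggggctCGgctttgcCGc
CG occurred 11 times before Sohlh1, 10 times before Gfra1 and 17 times before Kit, against a median of 6 over the 32851 stretches of the same length in the table. At least as many were found in 35.6%, 37.8% and 23.5% of those stretches. The letters CACGTG, the same on both strands and a special case of the general E-box CANNTG, occurred 3 times before Sohlh1 and 0 times before Gfra1 and Kit. CACGTG was present at least once in 6.02% of all stretches, and 3 or more times in 0.0609%. CANNTG in any form, also the same on both strands, was found 5 times before Sohlh1, 3 times before Gfra1 and 0 times before Kit, and in 66.2% of all stretches. The Gfra1 stretch lies within the gene interval used here (chr19:58235581-58455946), which reaches further upstream. The transcript starts behind that interval were not examined. Methylation of these stretches was not analysed here.

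Total counts ranged from 5194238 to 14578341 per L/Z library and from 9900346 to 23498968 per P0 library. Pld6 had 0 counts in both Pld6 KO libraries at L/Z and 0 to 2 in the 7 P0 libraries that lack it, against 344 and 352 (L/Z) and 57 and 40 (P0) in WT. Dnmt3l had 0 counts in both L/Z Dnmt3l KO libraries and 0 to 3 in the P0 libraries that lack it, against 19 and 11 (L/Z) and 53 and 72 (P0) in WT. The labelled cell type could be checked against 12 markers of L/Z spermatocytes, whose summed level was 4103 to 11130 CPM (counts scaled to library size, with TMM factors) in the sorted libraries and 132 to 397 CPM in the P0 testes. Sertoli markers summed to 80.5 to 377 CPM in the sorted libraries and 1642 to 2849 CPM at P0. At L/Z, the ribosomal RNA precursor Rn45s took 8.27% of the counts of WT replicate 1 and 8.06% of those of Pld6 KO replicate 1, but 0.13% to 0.3% of the other 4 libraries. At P0 it took 4.43% of the counts of DKO replicate 1 and at most 0.98% of those of every other library.

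Levels of different genes were compared per transcript length, as the authors' FPKM (fragments relative to transcript length and sequencing depth). In WT L/Z cells Dmrt1 was the highest, at 262 ± 6.99 FPKM (SD, n = 2), followed by Sohlh1 at 106 ± 19.6 and Kit at 59.4 ± 8.04. Each of these exceeded the next gene in both WT libraries. Lin28a (31.5 ± 14.4), Sall4 (25.0 ± 0.22) and Zbtb16 (17.8 ± 9.99) came next, and neighbours among them overlapped between libraries. The lowest were Ret (7.74 ± 4.04), Id4 (6.83 ± 0.259), Etv5 (6.39 ± 1.83) and Gfra1 (5.13 ± 2.13), in which every neighbouring pair overlapped. The genes of the differentiation step and Dmrt1 thus stood above the GDNF receptor genes in sorted spermatocytes.

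In WT P0 testes the order was different. Dmrt1 was again the highest at 61.3 ± 1.86 FPKM (SD, n = 2), and Etv5 was next at 17.8 ± 7.94, both apart from the gene that followed. From Id4 (7.32 ± 2.60) through Gfra1 (5.78 ± 1.23), Sohlh1 (4.95 ± 0.515), Sall4 (4.53 ± 1.83), Kit (4.47 ± 2.03) and Ret (4.35 ± 2.34), each gene overlapped its neighbour. Zbtb16 (1.98 ± 0.857) and Lin28a (1.78 ± 0.248) were the lowest and overlapped each other. FPKM of the 2 tables were computed separately, so levels were not tested between stages.

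In L/Z spermatocytes, the question was whether loss of Pld6 or of Dnmt3l altered these genes. Sohlh1 (chr2:25842995-25847248, minus strand) fell 2.15-fold in Dnmt3l KO cells. Its level was 131 and 101 CPM in the WT libraries, 70.7 and 69.9 CPM in Pld6 KO and 42.2 and 64.8 CPM in Dnmt3l KO. Both WT libraries were above all 4 mutant libraries, and both Pld6 KO libraries above both Dnmt3l KO libraries. For Dnmt3l KO against WT the log2 fold change was -1.11 ± 0.25 (SE, edgeR quasi-likelihood test, FDR = 0.0291, a Benjamini-Hochberg adjusted p over all genes). For Pld6 KO against WT it was -0.72 ± 0.25 (FDR = 0.428), and between the mutants -0.38 ± 0.25 (FDR = 0.445).

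The Dnmt3l KO call for Sohlh1 was lost without WT replicate 1 (log2 fold change -0.90, FDR = 0.138) and without Dnmt3l KO replicate 1 (-0.86, FDR = 0.189), and with GC content and transcript length taken into the fit as an offset (-0.78, FDR = 0.106). With a term for the Rn45s-rich libraries the value was -0.99 (FDR = 0.0434), just inside the 2-fold limit. The direction was the same in all 16 alternatives, from -1.46 to -0.78.

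A gene was called at an FDR under 0.05 and a fold change over 2. By this rule 1 of the 10 members was called in Dnmt3l KO against WT, while 5.47% of all 14662 tested genes were, so the count alone is close to the background. At an unadjusted p under 0.05, 4 members were lower and 0 higher, against 26.7% of all genes in either direction. The 10 members had a median log2 fold change of -0.80, where the median over all tested genes was -0.04. In 5 members (Id4, Sall4, Kit, Dmrt1 and Sohlh1) both Dnmt3l KO libraries lay below both WT libraries, as did 27.5% of all tested genes.

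Sall4 (chr2:168748332-168767201, minus strand) was at 119.5 and 91.9 CPM in WT, 153 and 95.3 CPM in Pld6 KO and 28.2 and 70.3 CPM in Dnmt3l KO. The Dnmt3l KO libraries were the lowest of the 6, but lay far from each other. The log2 fold change against WT was -1.08 ± 0.37 (edgeR FDR = 0.0978). Among the alternatives, DESeq2 (-1.10, FDR = 0.021), the compared groups alone (-1.08, FDR = 0.048) and no filter on low counts (-1.11, FDR = 0.0439) called it. With a term for the Rn45s-rich libraries it was not called (-0.80, FDR = 0.177). Over the 16 alternatives its value ran from -1.91 to -0.61. In FPKM the WT libraries were at 25.1 and 24.8, nearer to each other than in CPM.

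Dmrt1 (chr19:25505618-25604328, plus strand) was at 529 and 550 CPM in WT, 390.5 and 444 CPM in Pld6 KO and 189 and 414 CPM in Dnmt3l KO. WT was above both mutants in every library. The log2 fold change was -0.84 ± 0.32 for Dnmt3l KO (FDR = 0.124) and -0.37 ± 0.32 for Pld6 KO (FDR = 0.736), neither called. Lin28a (chr4:134003330-134019196, minus strand) was at 137 and 70.3 CPM in WT, 109 and 94.4 CPM in Pld6 KO and 24.8 and 73.6 CPM in Dnmt3l KO, the groups overlapping (-1.05 ± 0.43 for Dnmt3l KO, FDR = 0.146). Id4 (chr13:48261116-48266028, plus strand) was at 9.74 and 10.3 CPM in WT and 3.00 and 8.30 CPM in Dnmt3l KO (-0.76 ± 0.46, FDR = 0.311). In all of these Dnmt3l KO replicate 1, the library with the fewest counts, was the lowest of the 6.

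The GDNF receptor genes varied as much within genotypes as between them. Gfra1 was at 28.7 and 15.5 CPM in WT, 85.5 and 18.4 CPM in Pld6 KO and 17.4 and 31.5 CPM in Dnmt3l KO. Its level in Pld6 KO replicate 1 exceeded every other library, and the groups overlapped otherwise (log2 fold change 1.22 ± 0.57 for Pld6 KO, FDR = 0.543, and 0.17 ± 0.57 for Dnmt3l KO, FDR = 0.876). Ret (chr6:118151748-118197744, minus strand) was at 76.0 and 34.9 CPM in WT, 141 and 36 CPM in Pld6 KO and 44.2 and 45.5 CPM in Dnmt3l KO. Zbtb16 (chr9:48651797-48836225, minus strand) was at 123 and 53.0 CPM in WT, 165 and 88.2 CPM in Pld6 KO and 27.0 and 65.6 CPM in Dnmt3l KO. For Gfra1, Ret and Zbtb16, replicate 1 was above replicate 2 in both WT and Pld6 KO, and these are the Rn45s-rich libraries. The same held for Etv5, Sall4, Lin28a and Sohlh1. With a term for the Rn45s-rich libraries the log2 fold changes in Dnmt3l KO moved from 0.17 to 1.01 for Gfra1 (FDR = 0.118), from -0.30 to 0.57 for Ret (FDR = 0.212) and from -0.90 to -0.25 for Zbtb16 (FDR = 0.710), so that Ret changed sign without a call in either fit.

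Etv5 (chr16:22381313-22439570, minus strand) was at 27.9 and 18.5 CPM in WT, 62.5 and 29.7 CPM in Pld6 KO and 19.2 and 25.2 CPM in Dnmt3l KO. Both Pld6 KO libraries were above the other 4, by a log2 fold change of 0.98 ± 0.36 over WT (FDR = 0.449). In Dnmt3l KO against WT, Etv5 moved from -0.06 to 0.40 with the term for the Rn45s-rich libraries (FDR = 0.415), also changing sign without a call. Kit (chr5:75574987-75656722, plus strand) varied least, at 325 and 268 CPM in WT, 250.5 and 318 CPM in Pld6 KO and 246 and 194 CPM in Dnmt3l KO. Its highest library was 1.67 times its lowest, where the other members spanned 2.91-fold (Dmrt1) to 6.12-fold (Zbtb16) over the 6 libraries.

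**Figure D1:**
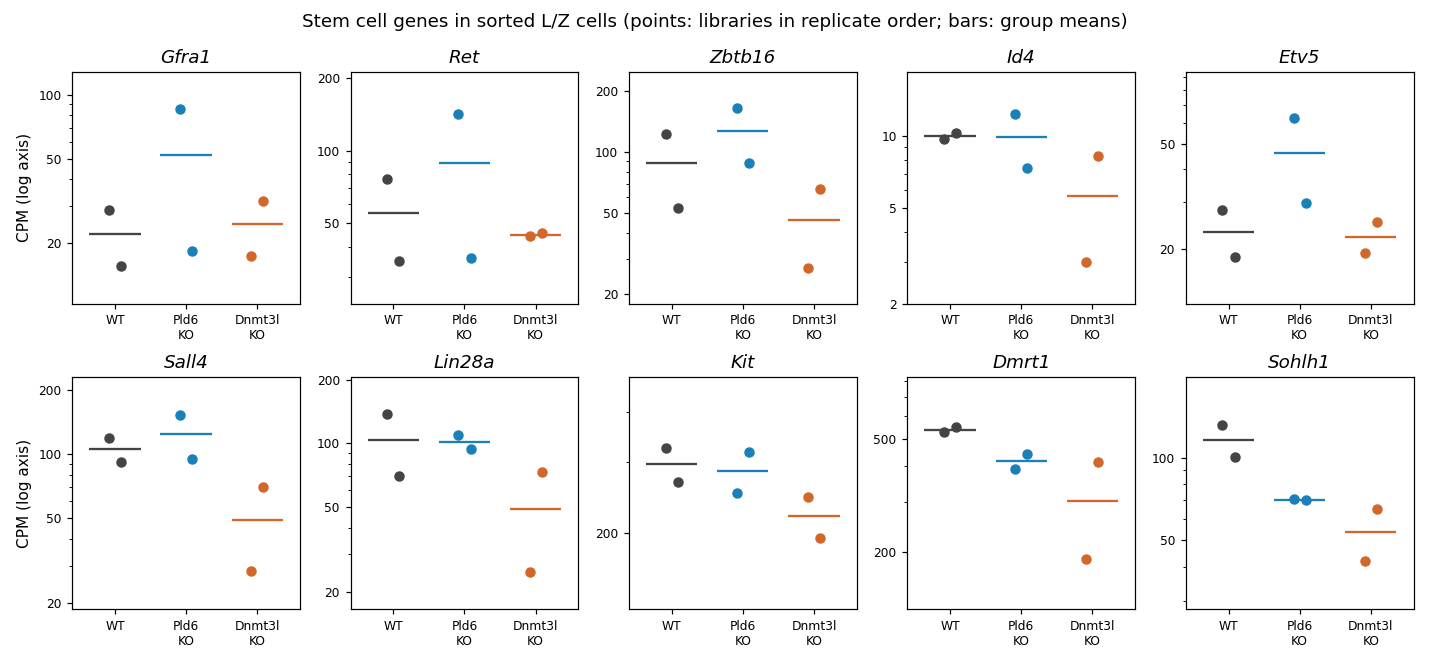
Levels of the 10 genes in sorted L/Z cells, in CPM on a log axis, with 1 point per library in replicate order and a bar at each group's mean (n = 2 per group). Sohlh1 and Dmrt1 were higher in both WT libraries than in all mutant libraries, while Gfra1 and Ret had their highest value in Pld6 KO replicate 1.

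In Pld6 KO against WT at L/Z, edgeR called 0 members and 0.225% of all genes. At an unadjusted p under 0.05, 1 member was higher (Etv5) and 1 lower (Sohlh1), against 9.17% of all genes, and DESeq2 also called 0 members. Between Dnmt3l KO and Pld6 KO, edgeR called 0 members and 0.0477% of all genes. There, all 10 members had lower fitted values in Dnmt3l KO (median log2 fold change -0.99), and 4 of them (Zbtb16, Etv5, Sall4 and Lin28a) had an unadjusted p under 0.05, against 17.5% of all genes. Over the 16 alternatives Gfra1 ran from -1.78 to 0.43 and Ret from -1.64 to 0.32, while the other 8 stayed below 0. DESeq2 called 1 member in this comparison, Sall4 (-1.34, FDR = 0.0117). The comparisons with WT share their WT libraries.

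Other genes moved in the same libraries. In Dnmt3l KO against WT at L/Z, 7 of the 12 L/Z spermatocyte markers were called higher (Dmc1, Hormad1, Meiob, Prdm9, Smc1b, Sycp1 and Sycp2), against 5.47% of all genes in either direction. The summed level of all 12 was 10125 and 11130 CPM in Dnmt3l KO against 4103 to 5654 CPM in WT. Prdm9, the histone methyltransferase that places meiotic recombination, was at 334 to 394 CPM in Dnmt3l KO and 67.2 to 130 CPM in WT (log2 fold change 1.88 ± 0.30, FDR = 0.0107). Markers of pachytene cells and spermatids summed to 17.7 to 26.4 CPM in Dnmt3l KO and 55.8 to 91.9 CPM in WT, with Prm2 at 0 in all L/Z libraries. Of these markers 5 were tested and 1 was called, Piwil1, which fell (-2.29 ± 0.31, FDR = 0.00514). Sertoli markers summed to 80.5 to 227 CPM in Dnmt3l KO and 280.1 to 377 CPM in WT. The sums for 12 markers of germ cells in general were 6331 to 6781 CPM in Dnmt3l KO and 3790 to 5424 CPM in WT. Of these 12 markers 0 were called by edgeR (median log2 fold change 0.17). At an unadjusted p under 0.05, 2 were higher and 4 lower, against 26.7% of all genes. Leydig markers summed to 24.2 to 43.4 CPM and blood, macrophage and mast cell markers to 6.80 to 46.2 CPM over all L/Z libraries, with the mast cell proteases Cma1 and Mcpt4 at 0. The share of these markers in the values of Sohlh1 and the other members was not tested.

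The marker calls at L/Z depended on single libraries. Without Dnmt3l KO replicate 1, 1 gene of all tested was called in place of 802, 0 of the 12 L/Z markers were called, and Prdm9 was at 1.75 (FDR = 0.130) and Piwil1 at -2.27 (FDR = 0.0988). The L/Z markers called were 1 without Dnmt3l KO replicate 2, 1 without WT replicate 1 and 1 with the GC and length offset.

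Of 26 other genes of undifferentiated spermatogonia tested at L/Z, 2 were called in Dnmt3l KO against WT, both lower, against 5.47% of all genes, and the list's median log2 fold change was -0.36. Pou3f1, a POU factor induced by GDNF, fell from 21.9 and 25.0 CPM in WT to 8.40 and 10.9 CPM (-1.27 ± 0.29, FDR = 0.0291). Sox3, a transcription factor of early spermatogonia, fell from 74.3 and 81.7 CPM to between 25.8 and 46.7 CPM (-1.09 ± 0.28, FDR = 0.0404). Of the most abundant genes of this list, Uchl1 was at 568 to 586 CPM in WT and 198 to 428 CPM in Dnmt3l KO, Epcam at 151 to 191 and 162 to 175 CPM, and Taf4b at 207 to 245 and 406 to 465 CPM. Without Dnmt3l KO replicate 1 the values were -1.13 for Pou3f1 (FDR = 0.182) and -0.76 for Sox3 (FDR = 0.216), and 0 of the list were called without that library, without WT replicate 1 or with the GC and length offset. The Taf4b value had an FDR of 0.0300 but a log2 fold change of 0.95 ± 0.22, inside the 2-fold limit.

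Of 10 other genes of spermatogonial differentiation, 1 was called in Dnmt3l KO at L/Z, again beside 5.47% of all genes. Dmrtb1, which acts at the switch from mitosis to meiosis, fell from between 157 and 215 CPM in WT to between 63.0 and 83.7 CPM (-1.33 ± 0.25, FDR = 0.0178), with Pld6 KO between them at 90.9 to 127 CPM. Its call was lost without Dnmt3l KO replicate 1 (-1.16, FDR = 0.158) and with the GC and length offset (-0.92, FDR = 0.0655). Stra8, the retinoic acid target of meiotic entry, was at 157 to 254 CPM in WT and 199 to 368 CPM in Dnmt3l KO. Ccnd1 was at 211 to 245 CPM in WT and 96.6 to 160.1 CPM in Dnmt3l KO, and Esx1 at 124 to 205 and 114 to 145 CPM. Of the GDNF family genes and partner signals, 14 were tested and 0 called by edgeR, 2 having an unadjusted p under 0.05, both lower, against 26.7% of all genes. Their most abundant members were Dusp6 (16.1 to 24.2 CPM in WT and 9.40 to 19.1 CPM in Dnmt3l KO), Kitl (6.46 to 19.8 and 4.51 to 5.6 CPM) and Etv4 (8.50 to 12.3 and 3.40 to 6.44 CPM).

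At P0, 4 members varied together from library to library. Ret ranged from 2.86 to 90.2 CPM over the 11 libraries, a 31.5-fold span, Zbtb16 16.3-fold, Sall4 12.9-fold and Gfra1 10.4-fold. A wide span was not particular to these 4, since Sohlh1 spanned 12.2-fold. Kit spanned 2.61-fold and Etv5 3.25-fold. Pearson's r of log2 CPM between pairs of Gfra1, Ret, Zbtb16 and Sall4 was 0.89 to 0.97 over the 11 libraries, and 0.86 to 0.99 after subtraction of each genotype's mean. Spearman's rho was 0.92 to 0.99, and without the 2 libraries farthest from the median of Ret, both Dnmt3l KO, Pearson's r was 0.89 to 0.99. Over the 11 libraries r with Ret was 0.86 for Id4, 0.81 for Etv5, 0.68 for Dmrt1 and 0.60 for Lin28a. For Etv5 with Sall4 it was 0.89, equal to the lowest pair of the 4 genes. After subtraction of the genotype means Dmrt1 was as close to Ret as Sall4 was (0.89 and 0.88), with Id4 at 0.85, Etv5 at 0.71 and Lin28a at 0.68. For Kit and Sohlh1 r with Ret was 0.09 and 0.05 over the libraries, and 0.31 and 0.39 within genotypes. These points share libraries of whole testes, whose germ cell content differs, so the correlations are a description.

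**Figure D2:**
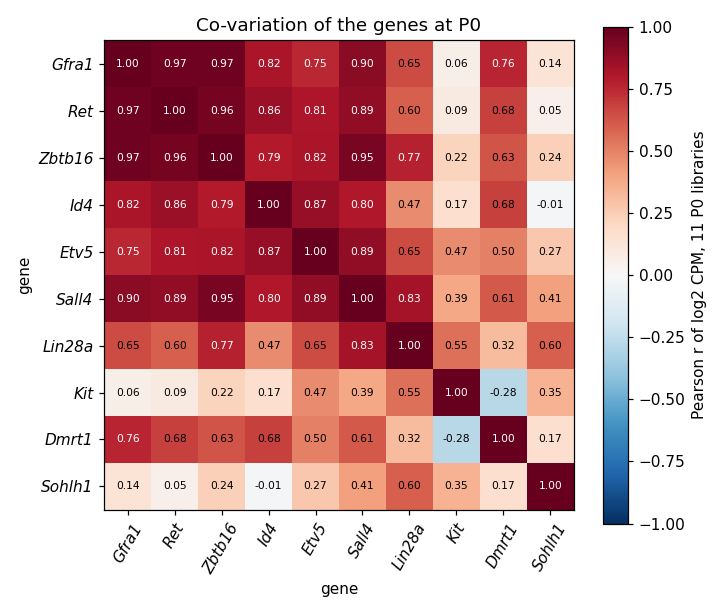
Pearson's r of log2 CPM between the 10 genes over the 11 P0 libraries, from -1 (blue) to 1 (red). Pairs of Gfra1, Ret, Zbtb16 and Sall4 have r of 0.89 to 0.97. They are not set apart from Etv5 and Id4, with r of 0.89 for Etv5 with Sall4 and 0.86 for Id4 with Ret. Ret has r of 0.09 with Kit and 0.05 with Sohlh1.

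Of 12120 genes with a mean of at least 5 CPM at P0, those most like Gfra1 across the 11 libraries were Ppp2r2c (r = 0.973), Ret (0.969) and Zbtb16 (0.967). Those most like Zbtb16 were Ppp2r2c (0.991), Gfra1 (0.967) and Ret (0.962), with Sall4 in place 9 (0.951). Ppp2r2c, which encodes a regulatory subunit of protein phosphatase 2A, ranged from 4.08 to 23.9 CPM. For Kit the most alike were Prkcd (0.890), Vps53 (0.873) and Irf5 (0.862), none of them a member.

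Ret was at 43.7 and 19.6 CPM in WT and at 13.7, 31.6, 90.2 and 6.84 CPM in Pld6 KO. It was at 6.23 and 2.86 CPM in Dnmt3l KO, and at 71.5, 28.0 and 78.0 CPM in DKO. The Dnmt3l KO libraries were the lowest of the 11, and the DKO libraries lay within the range of WT and Pld6 KO. The log2 fold change was -2.80 ± 0.96 for Dnmt3l KO against WT (edgeR FDR = 0.314), 0.91 ± 0.78 for DKO against WT (FDR = 0.825) and 3.70 ± 0.95 for DKO against Dnmt3l KO (FDR = 0.102). None of these was called in the edgeR fit.

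Zbtb16 was at 13.1 and 6.88 CPM in WT and at 4.13, 15.9, 31.3 and 3.72 CPM in Pld6 KO. It was at 4.56 and 2.26 CPM in Dnmt3l KO and at 36.3, 10.9 and 36.9 CPM in DKO. The order of libraries was much that of Ret, Pld6 KO replicate 3 and DKO replicates 1 and 3 being highest. The log2 fold change was -1.55 ± 0.90 for Dnmt3l KO against WT (FDR = 0.472) and 3.04 ± 0.87 for DKO against Dnmt3l KO (FDR = 0.125).

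Gfra1 was at 29.7 and 21.7 CPM in WT, 14.7, 28.9, 69.5 and 7.25 CPM in Pld6 KO, 13.9 and 6.68 CPM in Dnmt3l KO and 51.8, 23.7 and 57.4 CPM in DKO. Sall4 was at 28.4 and 16 CPM in WT, 6.03, 35.9, 77.6 and 11.3 CPM in Pld6 KO, 9.12 and 7.81 CPM in Dnmt3l KO and 55.8, 13.9 and 62.4 CPM in DKO. Both had lower values in Dnmt3l KO than in either WT or DKO libraries, and Pld6 KO libraries were spread from near the lowest to the highest value. The log2 fold changes of DKO over Dnmt3l KO were 2.11 ± 0.73 for Gfra1 (FDR = 0.173) and 2.38 ± 0.89 for Sall4 (FDR = 0.196).

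Id4 was at 14 and 8.23 CPM in WT, 7.43, 6.99, 16 and 7.04 CPM in Pld6 KO, 5.35 and 4.43 CPM in Dnmt3l KO and 11, 6.14 and 11.9 CPM in DKO. Etv5 was at 87.3 and 44.8 CPM in WT, 39.2, 61.7, 92.1 and 52.8 CPM in Pld6 KO, 30.9 and 39.1 CPM in Dnmt3l KO and 100.4, 40.3 and 74.1 CPM in DKO. In both, the highest libraries were WT replicate 1, Pld6 KO replicate 3 and DKO replicates 1 and 3, as for Ret and Gfra1. For Zbtb16 and Sall4, Pld6 KO replicate 2 was above WT replicate 1. The log2 fold changes of Dnmt3l KO against WT were -1.18 ± 0.46 for Id4 (FDR = 0.334) and -0.92 ± 0.43 for Etv5 (FDR = 0.386).

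Lin28a was at 6.63 and 5.37 CPM in WT, 3.88, 17.9, 15.5 and 9.66 CPM in Pld6 KO, 9.73 and 4.86 CPM in Dnmt3l KO and 18.0, 5.99 and 19.7 CPM in DKO, with overlap between all groups. Dmrt1 was at 134 and 126 CPM in WT, 81.1, 101, 119 and 38.2 CPM in Pld6 KO, 87.6 and 54.0 CPM in Dnmt3l KO and 98.7, 56.6 and 119 CPM in DKO. Both WT libraries were above all 9 mutant libraries for Dmrt1, although the log2 fold changes against WT (-0.61 ± 0.36 for Pld6 KO, -0.88 ± 0.43 for Dnmt3l KO and -0.50 ± 0.38 for DKO) had FDRs of 0.963, 0.399 and 0.791. The share of all genes with this order was not determined. For Dnmt3l KO alone, 24.3% of all tested genes lay below WT in both libraries. Sertoli markers, whose cells also use Dmrt1, summed to 2594 to 2849 CPM in WT and 1642 to 2405 CPM in the mutants, and their part in the Dmrt1 values was not tested.

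Kit was at 30.2 and 15.4 CPM in WT, 21.4, 36.5, 39.0 and 40.0 CPM in Pld6 KO, 24.6 and 35.3 CPM in Dnmt3l KO and 30.5, 24.4 and 31.1 CPM in DKO. Sohlh1 was at 5.27 and 5.96 CPM in WT, 0.991, 12.1, 5.82 and 5.64 CPM in Pld6 KO, 10.1 and 6.07 CPM in Dnmt3l KO and 9.81, 3.03 and 4.36 CPM in DKO. Neither followed Ret, and Dnmt3l KO was not low for either. The log2 fold changes of Dnmt3l KO against WT were 0.39 ± 0.33 for Kit (FDR = 0.613) and 0.52 ± 0.74 for Sohlh1 (FDR = 0.775).

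**Figure D3:**
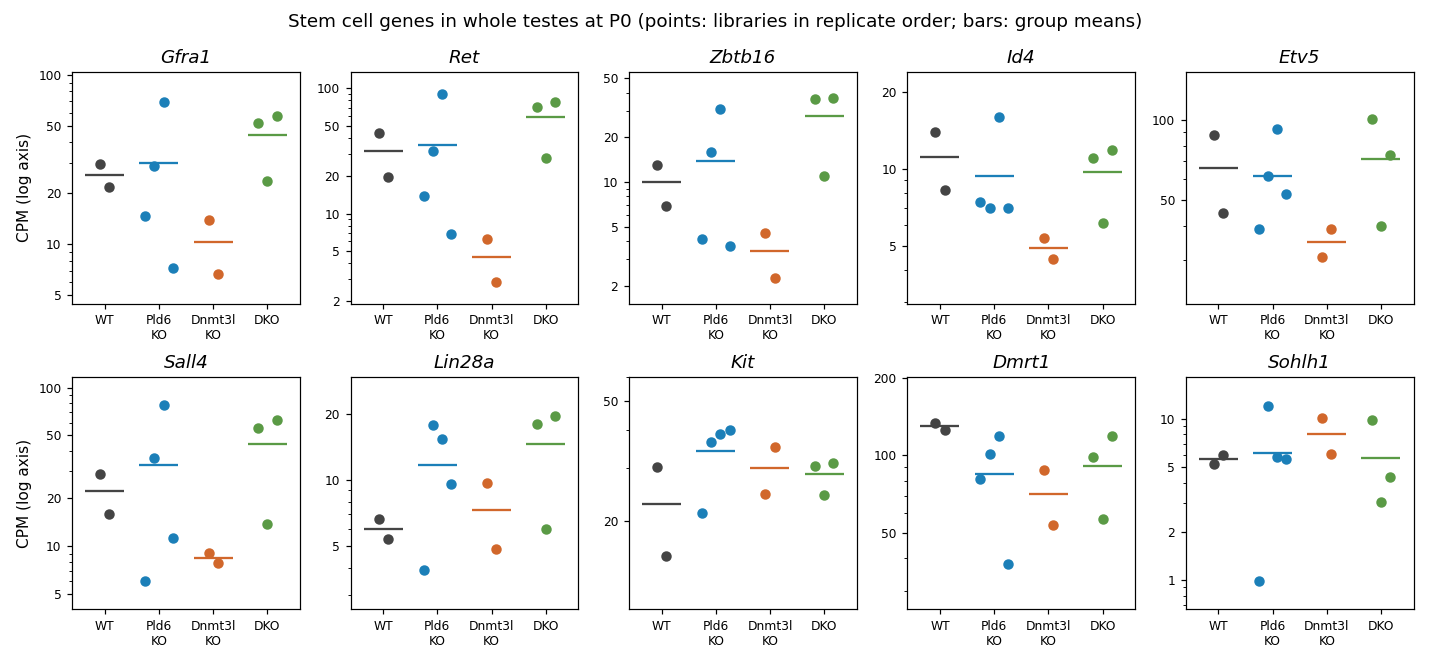
Levels of the 10 genes in whole P0 testes, in CPM on a log axis, with 1 point per library in replicate order and a bar at each group's mean (2 WT, 4 Pld6 KO, 2 Dnmt3l KO and 3 DKO). Gfra1, Ret, Zbtb16, Id4, Etv5 and Sall4 are lower in both Dnmt3l KO libraries than in every WT and DKO library, and Pld6 KO spreads from 6.84 to 90.2 CPM for Ret.

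In Dnmt3l KO against WT at P0, edgeR called 0 of 10 members and 0.0% of the 15901 genes tested, although 2056 genes had an unadjusted p under 0.05. DESeq2 called 0 members and 71 genes, and limma called 0 members, with 0 genes on log2(FPKM + 1) and 1 gene with 0.1 added in place of 1. At an unadjusted p under 0.05, 2 members were lower (Ret and Id4), against 12.9% of all genes. The median log2 fold change was -1.05 over the 10 members and 0.03 over all genes. Both Dnmt3l KO libraries lay below both WT libraries in 7 members (Gfra1, Ret, Zbtb16, Id4, Etv5, Sall4 and Dmrt1), as in 24.3% of all genes.

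In DKO against Dnmt3l KO, edgeR called 0 members and 0.0755% of all genes. At an unadjusted p under 0.05, 6 members were higher in DKO (Gfra1, Ret, Zbtb16, Id4, Etv5 and Sall4) and 0 lower, against 17.8% of all genes, and the same 6 had all 3 DKO libraries above both Dnmt3l KO libraries, as did 19.4% of all genes. These 6 varied together over the P0 libraries (Pearson's r of 0.75 to 0.97 between pairs), so they are not 6 independent results. The comparison with WT above used the same Dnmt3l KO libraries. The median log2 fold change was 1.01 over the members and -0.01 over all genes. DESeq2 called 2 members, Ret (3.70, FDR = 0.0149) and Zbtb16 (3.04, FDR = 0.047), and so did a fit of these 2 groups alone (FDR = 0.0202 and 0.0417). The Ret value was between 2.41 and 4.37 in the 16 alternatives. None of these held a term for Rn45s, which took 4.43% of the counts of DKO replicate 1.

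In the remaining P0 comparisons edgeR and DESeq2 both called 0 members. For Pld6 KO against WT, edgeR called 0.00629% of all genes, and 0 members had an unadjusted p under 0.05 (5.06% of all genes). The members' log2 fold changes ran from -0.61 ± 0.36 (Dmrt1) to 0.97 ± 0.56 (Lin28a). For DKO against WT the share of genes called was 0.0126%, and 1 member, Lin28a, had an unadjusted p under 0.05 (7.97% of all genes) at 1.28 ± 0.59 (FDR = 0.613). For DKO against Pld6 KO it was 0.0%, with 0 members at an unadjusted p under 0.05 (957 genes, 6.02%, by edgeR) and 6 genes called by DESeq2.

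An interaction term tested whether the DKO values departed from the added effects of both single mutants. By edgeR 0 members and 0.0% of all genes were called, and by DESeq2 0 members and 48 genes. At an unadjusted p under 0.05, 3 members were above the sum (Ret, Zbtb16 and Id4), against 10.9% of all genes in either direction. The term used the same Dnmt3l KO libraries as the comparisons above. For Ret the departure was 3.53 ± 1.15 on the log2 scale (FDR = 0.383), and for Zbtb16 2.57 ± 1.09 (FDR = 0.440).

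**Figure D4:**
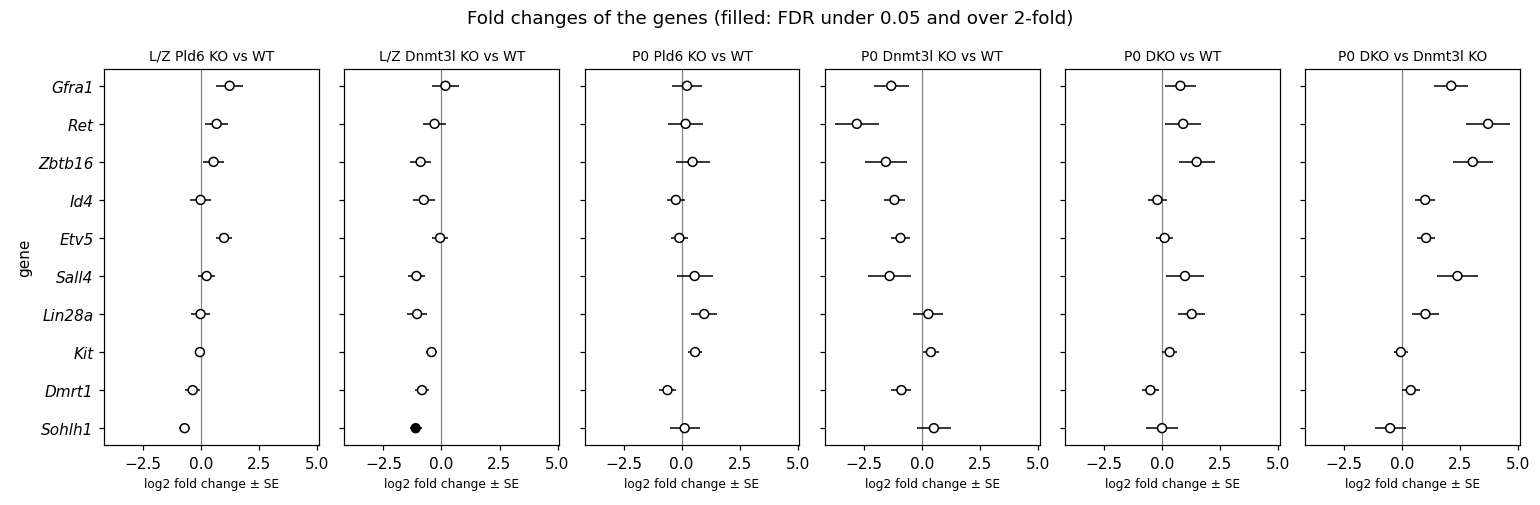
Log2 fold changes of the 10 genes with SE in 6 comparisons, from the edgeR fit of each stage, with a filled point where the FDR was under 0.05 and the fold over 2. The only filled point is Sohlh1 in L/Z Dnmt3l KO against WT (-1.11), while Ret at P0 is at -2.80 in Dnmt3l KO against WT and 3.70 in DKO against Dnmt3l KO, both with an SE near 0.95.

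The low values of Ret, Zbtb16, Gfra1 and Sall4 were set beside the germ cell markers of the same libraries. The 12 general germ cell markers summed to 318 and 394 CPM in WT, 147 to 585 CPM in Pld6 KO, 461 and 603 CPM in Dnmt3l KO and 268 to 552 CPM in DKO. The Dnmt3l KO testes were above both WT testes for the marker sum and below them for these 4 genes. The sum of 603 CPM was that of Dnmt3l KO replicate 1. In this library markers of pachytene cells and spermatids summed to 96.3 CPM, against 5.95 to 15.4 CPM in all other P0 libraries. Whether this bears on its germ cell marker sum was not tested. As a share of the marker sum, Ret was 11.1% and 6.15% in WT, 1.03% and 0.621% in Dnmt3l KO and 10.5% to 15.0% in DKO. In Pld6 KO replicate 4 the marker sum was 585 CPM and Ret 1.17% of it, and in Pld6 KO replicate 1 the sum was 147 CPM and Ret 9.30% of it. The 2 Pld6 KO libraries with low Ret were therefore at opposite ends of the marker sum. Pearson's r with the log2 marker sum over the 11 libraries was 0.03 for Ret, 0.11 for Gfra1, 0.26 for Zbtb16 and 0.44 for Sall4, but 0.61 for Kit, 0.72 for Lin28a and 0.89 for Sohlh1 (Spearman's rho -0.12, -0.11, 0.07, 0.15, 0.56, 0.64 and 0.67). Without the 2 libraries farthest from the median of the marker sum, Pld6 KO replicate 1 and DKO replicate 2, r was -0.13 for Ret, 0.60 for Kit, 0.60 for Lin28a and 0.45 for Sohlh1, so the Sohlh1 value rests largely on those libraries.

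**Figure D5:**
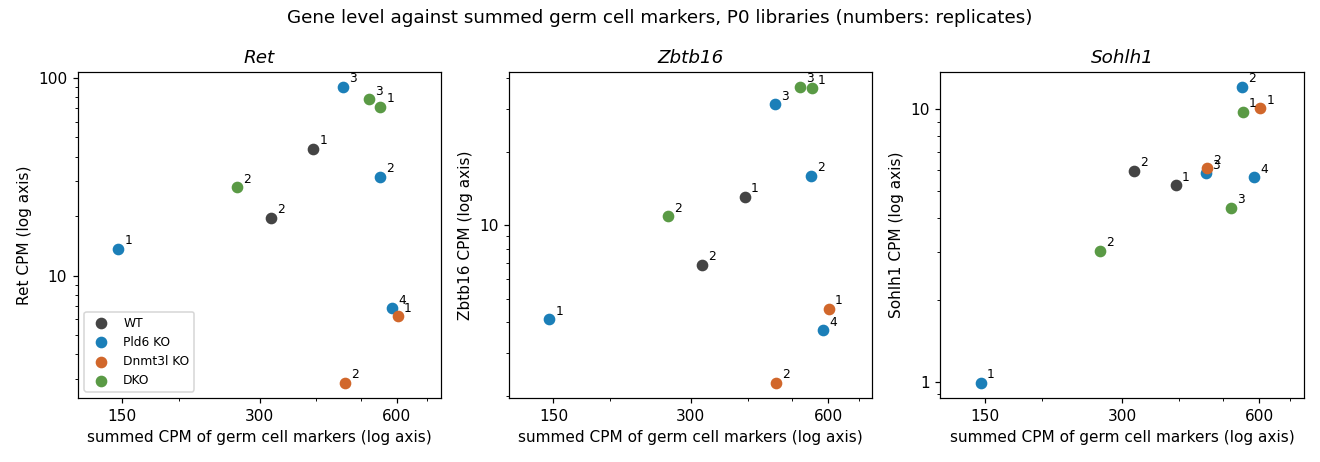
Levels of Ret, Zbtb16 and Sohlh1 in CPM against the summed CPM of 12 germ cell markers in the 11 P0 libraries, both axes logarithmic, with replicate numbers beside the points. Both Dnmt3l KO libraries and Pld6 KO replicate 4 combine a marker sum of 461 to 603 CPM with Ret of at most 6.84 CPM, while Sohlh1 is lowest, at 0.991 CPM, where the marker sum is lowest, at 147 CPM.

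With libraries scaled to these markers in place of all genes, the Dnmt3l KO value of Ret against WT was -3.38 (edgeR FDR = 0.168). That of Zbtb16 was -2.13 and that of Gfra1 -1.94 (FDR = 0.907 for each), and the median of all genes moved to -0.54. The 3 values were below that median, and none was called. The part of germ cell content in them was not tested. Lin28a, Kit and Sohlh1 were at -0.34, -0.09 and -0.10 under this scaling, below 0 but above the median of all genes, and were called under neither scaling. For DKO against Dnmt3l KO, Ret was called (3.95, FDR = 0.0161), with the median of all genes at 0.37. Other markers also differed between the libraries. Of the 12 L/Z spermatocyte markers 0 were called in Dnmt3l KO against WT by edgeR, but 8 were higher at an unadjusted p under 0.05, against 12.9% of all genes in either direction (list median log2 fold change 1.19). The 12 summed to 242 to 397 CPM in Dnmt3l KO, 235 to 342 CPM in DKO and 177 to 205 CPM in WT. Those of pachytene cells and spermatids summed to 96.3 CPM in Dnmt3l KO replicate 1 and 5.95 to 15.4 CPM in the other 10. Leydig markers summed to 2708 to 3292 CPM in Dnmt3l KO, up to 4444 CPM in Pld6 KO and 2043 to 2217 CPM in WT. Peritubular and vessel markers summed to 1188 to 1342 CPM in Dnmt3l KO and 1098 to 1478 CPM in WT, and blood markers to 133 to 363 CPM over all P0 libraries. Their part in the values of the members was not tested.

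The GDNF family genes and partner signals at P0 numbered 15 tested genes with 0 called in each P0 comparison, by edgeR. In Dnmt3l KO against WT 4 of them had an unadjusted p under 0.05, all lower (list median -0.45), against 12.9% of all genes, and in DKO against Dnmt3l KO 4 had, all higher (0.20), against 17.8%. The most abundant were Cxcl12, the ligand of CXCR4, at 491 to 699 CPM in WT and 644 to 1245 CPM in Dnmt3l KO, Kitl, the ligand of KIT, at 289.9 to 292 and 241 to 264 CPM, and Dusp6, a feedback phosphatase of the MAP kinase pathway, at 113 to 128 and 74.6 to 92.2 CPM. Among 25 other genes of undifferentiated spermatogonia, 0 were called in any P0 comparison. In Dnmt3l KO against WT 3 had an unadjusted p under 0.05, all lower (list median -0.32), which is near the 12.9% of all genes, and in DKO against Dnmt3l KO 8 had, all higher (0.79), against 17.8%. Their most abundant genes, Itga6 (159 to 177 CPM in WT and 129 to 139.8 CPM in Dnmt3l KO), Foxo1 (54.4 to 70.4 and 45.9 to 68.6 CPM) and Cd9 (55.6 to 66.6 and 64.9 to 66.2 CPM), differed little. Of 10 other differentiation genes 0 were called at P0, with list medians of 0.00 in Dnmt3l KO against WT and 0.01 in DKO against Dnmt3l KO. The most abundant were Ccnd2 (592 to 727 CPM in WT and 366 to 409 CPM in Dnmt3l KO), Ccnd1 (19.1 to 27.5 and 15.4 to 19.5 CPM) and Rarg (14.3 to 19.3 and 14.4 to 26.0 CPM).

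Effects of a mutation at the different stages were compared in 1 model of 14 libraries, leaving out DKO, in which stage, tissue and read type cannot be told apart. For Dnmt3l KO, 0 members and 0.665% of 16547 genes differed between stages at an FDR under 0.05 by edgeR, and 0 members had an unadjusted p under 0.05 (17.2% of all genes). For Pld6 KO these were 0 members, 0.0121% and 0 members (9.52%), and DESeq2 called 0 members in both. For Sohlh1 the effect of Dnmt3l KO at L/Z less that at P0 was -1.66 ± 0.83 on the log2 scale (FDR = 0.321), and for Ret 2.44 ± 1.31 (FDR = 0.357).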

How the data were processed

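Poly(A)+ RNA libraries (TruSeq stranded mRNA) were sequenced by the authors, aligned with TopHat2 to mm10 (GRCm38) and quantified over RefSeq genes with Cuffdiff, versions not given in the sources used here. The deposited tables, 1 per stage, hold estimated counts of fragments (97.8% and 97.7% whole) and the authors' FPKM, scaled to transcript length and library, for each library without pooling. The tables number replicates from 0 and the labels from 1, and the smaller of each was matched. Cuffdiff divides fragments between overlapping transcripts by likelihood. Genes without status OK in every library were left out (6 at L/Z, 2 at P0).

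After rounding of the estimated counts, tests used edgeR 4.0.16 under R 4.3.3 (filterByExpr, TMM scaling, glmQLFit and glmQLFTest, all groups of a stage in 1 fit). FDR is the Benjamini-Hochberg adjusted p over all tested genes, and a call needed FDR under 0.05 and a fold over 2 (no fold limit between stages). SE is the log2 fold change divided by the square root of F. CPM are TMM-scaled, log2 CPM used a prior count of 2, and correlations are descriptions. The labels call the replicates biological; whether they were separate animals, or whether WT includes heterozygotes, is not given in the sources used here, so p-values measure the spread between these libraries. The code was tested on simulated counts.

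The 10 members, the 3 pathway lists and the 7 marker lists were chosen with earlier results of these data known. Genes named beside the members were Pld6 and Dnmt3l, list genes called in a comparison, the 3 most abundant genes of each pathway list at each stage, and the 3 genes most like Gfra1, Zbtb16 and Kit at P0. For Ret, Gfra1, Zbtb16 and Sall4, the grouping at P0 was chosen after their values were seen, as was the motif CACGTG.

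Alternatives were DESeq2 1.42.0 (size factors, and its Wald test), no filter, a mean of at least 50 counts, the compared groups alone, limma 3.58.1 on the log2 scale of FPKM with 1 or 0.1 added, a block for the replicate number, no fold limit, leaving out each replicate, a GC and length offset (loess span 0.3, for 98.5% of genes), a term for libraries with over 1% Rn45s, and scaling to germ cell markers at P0. The Rn45s term was fitted at L/Z only, although DKO replicate 1 at P0 also passed that limit (4.43%). A block with crossed numbers, and calls of list genes under these alternatives, were added after seeing the data. Python 3.11.15, numpy 2.4.6, pandas 2.3.3 and matplotlib 3.10.9 were used for tables and figures.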

Additional observations from a re-analysis of the deposited data

Results flagged for a closer look

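In the 4 Pld6 KO testes at P0, 1 library stood apart from the others for 2 members, by Dixon's test on log2 CPM (gap to the nearest library divided by the whole range, above the 95% limit for 4 samples). For Id4 the ratio was 0.927, from replicate 3 at 16 CPM with the others at 6.99 to 7.43 CPM, and for Kit it was 0.851, from replicate 1 at 21.4 CPM with the others at 36.5 to 40.0 CPM. Chance gives such a value in about 1 in 20 groups, and 10 genes were examined. Replicate 3 was also the highest Pld6 KO library for Gfra1, Ret, Zbtb16, Etv5, Sall4 and Dmrt1, and replicate 1 had the lowest germ cell marker sum of the 11 libraries.

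Sohlh1 in Dnmt3l KO was below WT in both libraries at L/Z (log2 fold change -1.11) and above WT in both libraries at P0 (0.52). At P0, Dnmt3l KO replicate 2 (6.07 CPM) was close to WT (5.27 and 5.96 CPM). The P0 value therefore rests mostly on replicate 1 (10.1 CPM). Summed markers of pachytene cells and spermatids were also highest in that library, at 96.3 CPM. The test of the difference between stages gave an edgeR FDR of 0.321, so the opposite signs are not shown to differ.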

How the results depend on the processing

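Of 1570 alternative values of single members, 1544 kept their side of the threshold, 22 gained a call and 4 lost it, and 0 reversed a call. Of the 1544, 94 changed sign, with no call in either setting. In L/Z Dnmt3l KO against WT, 1 member was called, and 2 with no filter on low counts, with DESeq2's test and with the compared groups alone, but 0 with the term for Rn45s-rich libraries and 0 with the offset for GC and length. Leaving out a replicate gave 0 to 4 there: 0 without WT replicate 1 or Dnmt3l KO replicate 1, and 4 without Dnmt3l KO replicate 2 (Sall4, Lin28a, Dmrt1 and Sohlh1), whose remaining library is assumed to vary like the other groups. Where 0 members were called, leaving out Pld6 KO replicate 2 gave 1 in L/Z Pld6 KO against WT (Gfra1, 1.95, FDR = 0.0203) and 4 between the L/Z mutants (range 0 to 4; range 0 to 1 for Pld6 KO against WT), and DESeq2's test gave 1 between the L/Z mutants. In P0 DKO against Dnmt3l KO, DESeq2's test and the compared groups alone gave 2, and scaling to germ cell markers 1. Other counts of members called were the same. The causes were not tested.

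Same-numbered L/Z libraries correlated at 0.485 (WT with Pld6 KO) and at -0.144 and -0.135 (with Dnmt3l KO), and P0 libraries at -0.332 to 0.271. The numbers thus do not pair the libraries over all genotypes. At L/Z, WT and Pld6 KO did go together by number, and replicate 1 of each was rich in Rn45s (8.27% and 8.06%). The replicate block left 1 member called in L/Z Dnmt3l KO against WT and 0 elsewhere, and moved the genes called there from 802 to 912. With Dnmt3l KO numbers crossed, a replicate block chosen after seeing the data, 3 members were called in L/Z Dnmt3l KO against WT and 3 between the L/Z mutants, with 1282 and 516 genes.

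Over all alternatives the number of genes called was 1 to 101 in L/Z Pld6 KO against WT (33 as reported), 1 to 1282 in Dnmt3l KO against WT (802), 1 being without Dnmt3l KO replicate 1, and 0 to 516 between the mutants (7). At P0 it was 0 to 20 in Pld6 KO (1), 0 to 71 in Dnmt3l KO (0) and 1 to 102 in DKO (2) against WT, 0 to 12 in DKO against Pld6 KO (0), 0 to 258 in DKO against Dnmt3l KO (12) and 0 to 48 for the departure (0). Between stages it was 2 to 45 for Pld6 KO (2) and 103 to 699 for Dnmt3l KO (110). In P0 Dnmt3l KO against WT, with 2 libraries a group, SEs were 0.96 for Ret and 0.90 for Zbtb16 on the log2 scale, which limits what could be called.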

Other observations

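At P0 the targeted gene Dnmt3l itself varied between libraries that carry it, at 4.50 and 6.04 CPM in WT testes and at 0.495, 10.7, 2.57 and 14.6 CPM in Pld6 KO testes. In Pld6 KO, replicate 4 had the highest Dnmt3l (14.6 CPM) with the lowest Ret (6.84 CPM), and replicate 3 had lower Dnmt3l (2.57 CPM) with the highest Ret (90.2 CPM). Replicate 1 was low for both (0.495 and 13.7 CPM). These are single libraries, and no test was made.

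As a share of the germ cell marker sum, Sohlh1 at L/Z was 3.46% and 1.86% (WT), 1.87% and 1.47% for the Pld6 KO libraries and 0.622% and 1.02% for the Dnmt3l KO libraries, so that on this scale WT replicate 2 was not above Pld6 KO replicate 1. All 10 members together came to 22.4% and 39.8% of the marker sum in WT, and 25.3% and 38.2% in Pld6 KO. In Dnmt3l KO they came to 9.45% and 15.7%. The marker sum was itself higher in Dnmt3l KO than in WT. Of its 12 markers, 2 were higher and 4 lower there at an unadjusted p under 0.05 (edgeR).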
